A study of Mus musculus with 6 samples.

Results

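The enzymes that make serine from a glycolytic intermediate and pass its carbon to folate were examined as a set of 9 genes, Phgdh, Psat1, Psph, Shmt1, Shmt2, Mthfd1, Mthfd2, Mthfd1l and Aldh1l2. They were chosen by name, with earlier results of these data known. Each was read by its single-gene probe set, a group of array probes that the annotation assigns to exactly 1 gene. Each of the 9 had only 1 such probe set, so all 9 were measured, among 19938 genes tested. Expression was measured on 6 Affymetrix arrays, with total RNA of mouse pre-B cells (strain 129P2/OlaHsd) transformed with BCR-ABL1, the fusion kinase of Philadelphia chromosome-positive acute lymphoblastic leukaemia. All cells were labelled Ptpn6 +/fl, so they carried 1 floxed and 1 unfloxed allele of the gene for the phosphatase SHP-1. The 3 arrays labelled ERT2 came from cells transduced with PMIP-ERT2, a vector with the tamoxifen-binding receptor domain and no recombinase, and the 3 labelled CRE-ERT2 from cells transduced with PMIP-CRE-ERT2, which adds the Cre recombinase. Both groups were resistant to puromycin and had 2 days of 4OH-Tamoxifen at 0.5 micromolar, which leaves the vector as the difference that the labels give. With the unfloxed allele present in both groups, the labels describe at most the loss of 1 of 2 alleles, in a culture of transformed cells and not in an animal.

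The study's question was what Ptpn6 does in these cells. Ptpn6 itself stood at 11.25, 11.39 and 11.39 in the arrays labelled ERT2 and at 11.36, 11.25 and 11.20 in those labelled CRE-ERT2, on the log2 scale used for all levels here. The groups overlapped, and the change of -0.07 (standard error 0.08, n = 3 each) did not pass (limma adjusted p = 0.759). No source used here gives the position of its probes relative to the floxed exons, so this level checks nothing about the labels, and directions run from the arrays labelled ERT2 to those labelled CRE-ERT2. Array medians lay between 7.90 and 7.98. The 11 measured markers of pre-B cells were all above the median of every array, against 5 of 25 markers of T and NK, myeloid, erythroid and megakaryocyte, or stromal cells.

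Serine is made in the cytosol from phosphoglycerate by phosphoglycerate dehydrogenase, phosphoserine aminotransferase and phosphoserine phosphatase. Serine hydroxymethyltransferases then split serine into glycine and a carbon unit held by tetrahydrofolate. In mitochondria that unit is oxidised and released as formate, which the cytosolic enzymes use to build purines and thymidylate. Dividing lymphoid cells draw heavily on this route, and the transcription factors ATF4 and MYC are known to switch on several of its genes.

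Enzymes of this route fell in the arrays labelled CRE-ERT2 relative to those labelled ERT2, and 0 rose. With limma, 4 of the 9 fell at an adjusted p under 0.05: Mthfd2 (1.45-fold), Mthfd1l (1.34-fold), Psat1 (1.26-fold) and Shmt1 (1.26-fold). Leaving out replicate 2 or 3 of CRE-ERT2 reduced the 4 to 2 and 1, and testing all probe sets on the array reduced them to 1, Mthfd2. Over all genes tested 2.28% fell and 2.30% rose, against 44.4% of the enzymes that fell. The 9 were chosen with earlier results of these data known, so this comparison is a description. Of the 9, 8 were above the median of every array, and dim genes are part of the background. Without the dimmest 0.333 of genes, 720 genes fell and 540 rose, against 455 and 459 with all genes. The 720 and 540 are out of fewer genes, so both shares were higher among brighter genes than 2.28% and 2.30%. The other shares given here for all genes also include the dim ones. At an unadjusted p under 0.05, 6 enzymes were lower and 0 higher, and over all genes 2205 (11.1%) were lower and 1055 (5.29%) higher. The median log2 change of the 9 was -0.25, and that of all genes was -0.03. For 6 of the 9 every array labelled CRE-ERT2 was below every array labelled ERT2, a pattern found in 15.5% of all genes. In RNA from whole cultures, fewer cells that express a gene and less RNA per cell cannot be told apart. Nothing in the labels gives separate cultures or animals within a group, so p-values reflect only how far these samples differ, which may be technical.

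**Figure D1:**
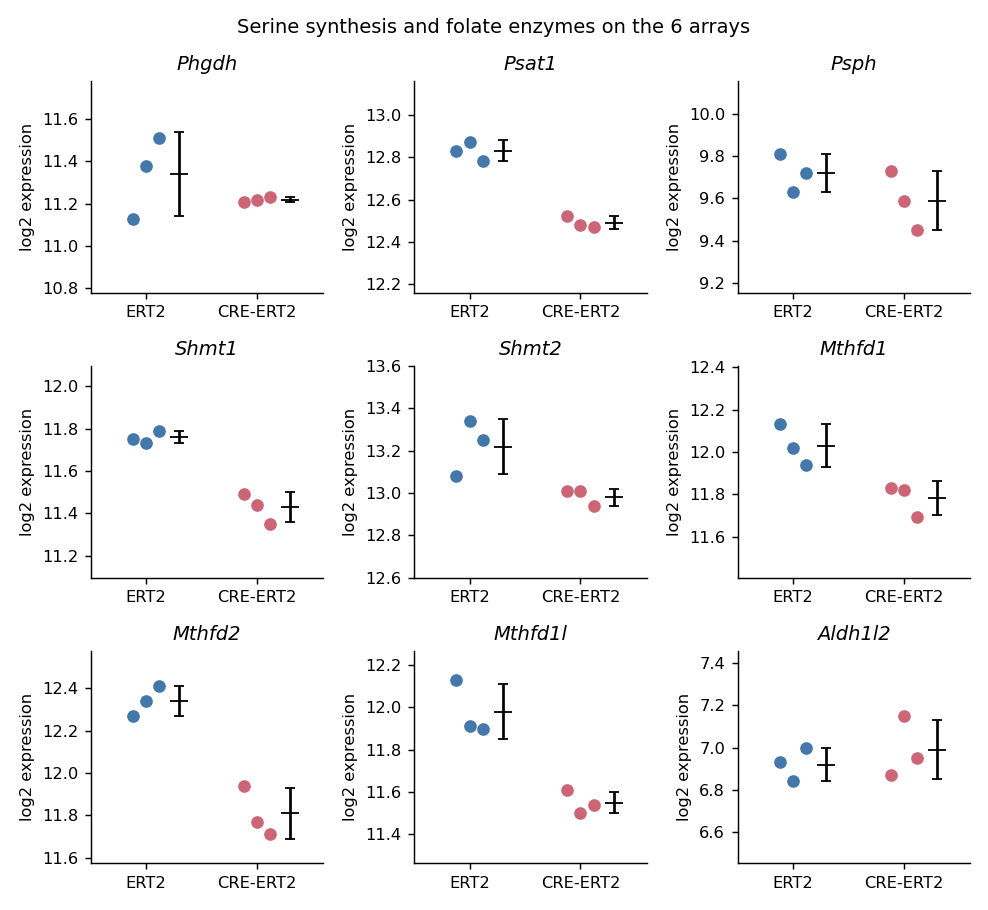
Log2 expression (vertical axis, each panel spanning 1 unit) of the 9 enzymes on the 3 arrays labelled ERT2 (blue) and the 3 labelled CRE-ERT2 (red), with the mean and SD in black. The groups do not overlap for Psat1, Shmt1, Shmt2, Mthfd1, Mthfd2 and Mthfd1l, and they overlap for Phgdh, Psph and Aldh1l2.

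The sequences before the start sites of the 4 enzymes that fell are shown because these genes passed the threshold. Whether they are regulated together was not tested. They are the 250 bases upstream of a start site in RefSeq's GRCm38.p6 table, printed 5′ to 3′ along the gene's strand. The sites used for Psat1 and Shmt1 are the outermost starts of their genes, and those used for Mthfd2 and Mthfd1l are not. Capitals mark the CCAAT box, searched as CCAAT on both strands (ATTGG when read on the other strand). The window of Psat1 lies at chr19:15925060-15925309, minus strand, that of Shmt1 at chr11:60811266-60811515, minus strand, that of Mthfd2 at chr6:83317605-83317854, minus strand and that of Mthfd1l at chr10:3972825-3973074, plus strand.
Psat1: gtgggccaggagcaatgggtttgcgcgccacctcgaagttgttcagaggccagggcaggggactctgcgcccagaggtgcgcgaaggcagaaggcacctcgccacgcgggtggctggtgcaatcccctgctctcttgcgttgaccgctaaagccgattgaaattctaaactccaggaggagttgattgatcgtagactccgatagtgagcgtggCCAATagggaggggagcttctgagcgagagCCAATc
Shmt1: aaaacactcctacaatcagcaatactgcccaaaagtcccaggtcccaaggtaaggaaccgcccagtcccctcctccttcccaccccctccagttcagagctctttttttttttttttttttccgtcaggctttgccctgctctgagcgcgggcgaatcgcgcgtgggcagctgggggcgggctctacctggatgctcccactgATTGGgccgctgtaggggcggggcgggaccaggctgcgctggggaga
Mthfd2: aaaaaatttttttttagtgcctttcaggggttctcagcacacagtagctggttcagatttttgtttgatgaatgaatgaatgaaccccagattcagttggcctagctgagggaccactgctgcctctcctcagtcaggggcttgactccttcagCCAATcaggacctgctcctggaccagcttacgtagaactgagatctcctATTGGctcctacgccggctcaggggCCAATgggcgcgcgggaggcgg
Mthfd1l: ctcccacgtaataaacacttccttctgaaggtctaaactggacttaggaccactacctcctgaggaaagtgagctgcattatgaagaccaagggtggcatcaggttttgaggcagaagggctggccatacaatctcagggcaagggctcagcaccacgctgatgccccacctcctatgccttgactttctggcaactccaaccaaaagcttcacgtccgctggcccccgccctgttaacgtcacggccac
Mthfd2 has 3 CCAAT boxes, whose outer edges lie 96, 47 and 22 bases before the start site. Psat1 has 2 and Shmt1 has 1, while Mthfd1l has 0. A second Psat1 start site in the table has 0 in the same window. The table held 9 windows for 8 of the 9 enzymes. A CCAAT box was in 6 of these 9 windows, each of a different gene, against 33.8% of the 32851 windows of this length. The 6 genes were the 3 above with Phgdh, Psph and Mthfd1, so the box was present at genes that fell and at genes that did not pass. The composite element bound by ATF4, searched as TGATGNAA on both strands, was in 0 of the 9 windows of these 8 genes and in 3.45% of all windows. The E-box bound by MYC (CACGTG, the same on both strands) was in 0 of the 9 windows and in 6.02% of all, and the cyclic AMP response element (TGACGTCA, the same on both strands) in 0 of 9 and in 1.55%. These 3 searches say only that the letters are not in these windows.

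Among the 3 steps of serine synthesis, only the middle enzyme passed. Phgdh, whose product takes the first step away from glycolysis, was at 11.13, 11.38 and 11.51 in the arrays labelled ERT2. In the arrays labelled CRE-ERT2 it was at 11.21, 11.22 and 11.23. The latter lay inside the spread of the former, whose SD was 0.20 against 0.01. The log2 change was -0.12, a ratio of 0.921 with a 95% interval from 0.80 to 1.06 (limma adjusted p = 0.625). It was -0.23 without ERT2 replicate 1 and -0.03 without ERT2 replicate 3. A second probe set is listed for Phgdh together with the related sequence Gm6756 and was left out of the gene tests. Its levels were 11.98, 12.10 and 12.12 in the arrays labelled ERT2 and 11.99, 11.98 and 11.87 in those labelled CRE-ERT2, and its change was also -0.12 (interval -0.29 to 0.05, limma adjusted p = 0.618 over all probe sets).

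Psat1, which adds the amino group, stood at 12.83, 12.87 and 12.78 in the arrays labelled ERT2. It was at 12.52, 12.48 and 12.47 in those labelled CRE-ERT2. The 3 lower arrays were close together and the gap to the nearest of the others was larger than the range within either group. Psat1 fell by 0.33 on the log2 scale (standard error 0.07, interval -0.49 to -0.18, limma adjusted p = 0.0151). Leaving out CRE-ERT2 replicate 2 or replicate 3 ended the call (adjusted p = 0.0674 and 0.0855). It was also lost when all probe sets were tested (0.0800), with the change between -0.36 and -0.30 over 14 alternatives.

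Psph, the phosphatase that releases free serine, was at 9.81, 9.63 and 9.72 in the arrays labelled ERT2. Its levels were 9.73, 9.59 and 9.45 in those labelled CRE-ERT2. The groups overlapped, and the change of -0.13 (ratio 0.912, interval 0.801 to 1.04) did not pass (limma adjusted p = 0.511). Left-out arrays moved it to -0.20 (CRE-ERT2 replicate 1) and -0.06 (CRE-ERT2 replicate 3) at the extremes.

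Both serine hydroxymethyltransferase genes were lower in every array labelled CRE-ERT2, and the cytosolic one passed. Shmt1, the cytosolic form, was at 11.75, 11.73 and 11.79 in the arrays labelled ERT2 and at 11.49, 11.44 and 11.35 in those labelled CRE-ERT2. It fell by 0.33 (standard error 0.07, interval -0.49 to -0.17, limma adjusted p = 0.0200). The call of Shmt1 ended when ERT2 replicate 1 was left out (adjusted p = 0.0607), or when replicate 2 (0.0642) or replicate 3 (0.125) of CRE-ERT2 was, and so did testing all probe sets (0.106).

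Shmt2, the mitochondrial form and the usual main source of folate-bound carbon in dividing cells, stood at 13.08, 13.34 and 13.25 in the arrays labelled ERT2. In those labelled CRE-ERT2 it stood at 13.01, 13.01 and 12.94. The groups were apart, but the nearest arrays differed by less than the spread of the ERT2 arrays. Its change of -0.24 (standard error 0.08, ratio 0.848, interval 0.751 to 0.957) did not pass over all genes (limma adjusted p = 0.134). With a trended, robust variance it did (0.0135).

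Within each array the log2 difference between Shmt2 and Shmt1 shows whether the 2 forms changed unequally. The difference of their changes was 0.09 (standard error 0.09), and a two-sided exact permutation test over the arrays gave p = 0.4. The difference was 0.02 without ERT2 replicate 1 and 0.17 without ERT2 replicate 2. So Shmt1 passed and Shmt2 did not, but their changes were not shown to differ. Of 4 isozyme pairs tested this way, where 3 arrays against 3 cannot give a p below 0.1, 0 passed (adjusted p from 0.2 to 0.8 over the 4 pairs).

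The 2 largest changes among the 9 were those of Mthfd2 and Mthfd1l, both of mitochondria. Mthfd2, which oxidises the folate-bound carbon in mitochondria and is scarce in most resting adult tissue, was at 12.27, 12.34 and 12.41 in the arrays labelled ERT2. It was at 11.94, 11.77 and 11.71 in the arrays labelled CRE-ERT2. The groups were apart by more than the range within either. Mthfd2 fell by 0.54 (standard error 0.08, interval -0.71 to -0.36), a ratio of 0.690, with a limma adjusted p of 0.00173. It passed under all 14 alternatives, with changes from -0.60 to -0.49 and adjusted p from 1.47e-05 to 0.0475.

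Mthfd1l, which releases formate from the mitochondrial carrier, was at 12.13, 11.91 and 11.90 in the arrays labelled ERT2. Its levels in those labelled CRE-ERT2 were 11.61, 11.50 and 11.54. ERT2 replicate 1 was the highest of the 6, and without it the change was -0.35, against -0.43 with all arrays (standard error 0.08, interval -0.60 to -0.25, limma adjusted p = 0.00839). The call of Mthfd1l was lost without CRE-ERT2 replicate 3 (adjusted p = 0.0565) and when all probe sets were tested (0.0998).

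Mthfd1, the cytosolic enzyme that uses formate, was at 12.13, 12.02 and 11.94 in the arrays labelled ERT2. In the arrays labelled CRE-ERT2 it was at 11.83, 11.82 and 11.69. The groups did not overlap, and the change was -0.25 (standard error 0.08, ratio 0.840, interval 0.746 to 0.946). It did not pass over all genes (limma adjusted p = 0.104), but did with a trended, robust variance (0.0202). The change of Mthfd1l minus that of Mthfd1 was -0.18 (standard error 0.06), with within-array differences that did not overlap between the groups. An exact permutation test gave p = 0.1, the smallest possible with these arrays, and an adjusted p of 0.2.

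Aldh1l2, which burns formyl-tetrahydrofolate in mitochondria to make NADPH, was the 1 enzyme with a change above 0. It was at 6.93, 6.84 and 7.0 in the arrays labelled ERT2 and at 6.87, 7.15 and 6.95 in those labelled CRE-ERT2. The groups overlapped, and the change of 0.06 (ratio 1.04, interval 0.919 to 1.19) did not pass (limma adjusted p = 0.825). Without CRE-ERT2 replicate 2, the highest array, it was -0.02. The probe set was among the 0.333 of genes with the lowest mean, where a change is compressed, and its signal over background is unknown here. Its cytosolic counterpart Aldh1l1 changed by -0.11, and the difference of 0.18 between the changes (standard error 0.04) had an exact permutation p of 0.1 and an adjusted p of 0.2.

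**Figure D2:**
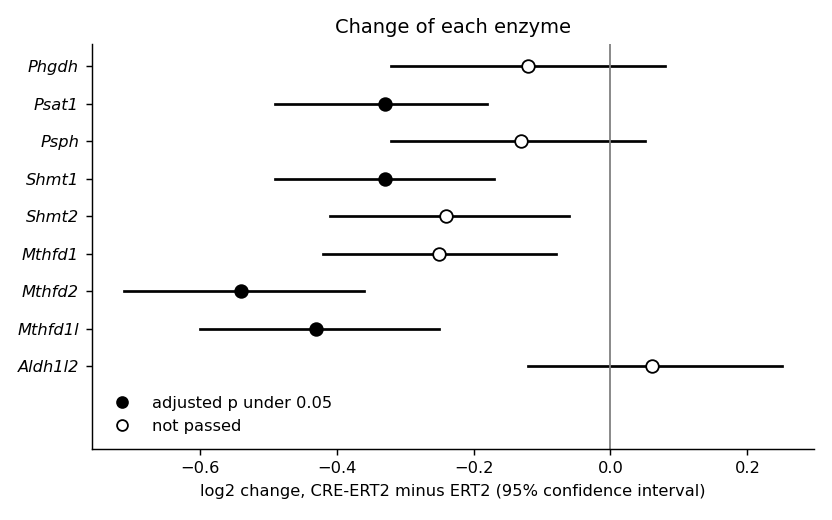
Log2 change of each enzyme, CRE-ERT2 minus ERT2 (horizontal axis), with its 95% confidence interval from limma. Filled points passed at an adjusted p under 0.05. Mthfd2 (-0.54) and Mthfd1l (-0.43) lie farthest left, and the intervals of Phgdh, Psph and Aldh1l2 include 0.

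**Figure D3:**
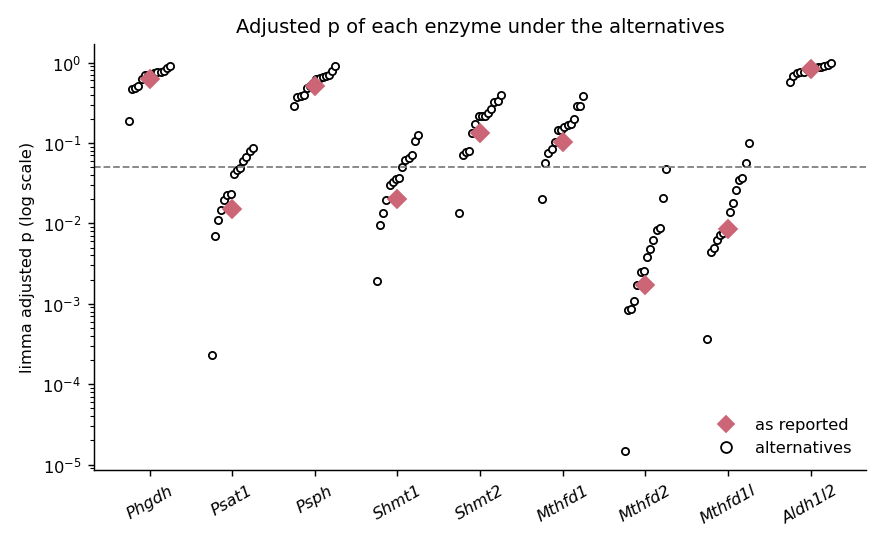
Limma adjusted p (vertical log axis) of each enzyme as reported (diamonds) and under each alternative (circles), with the dashed line at 0.05. Mthfd2 stays below the line throughout, while Psat1, Shmt1 and Mthfd1l lie on both sides of it.

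Around these 9, 71 other genes of the route and its neighbours were measured of 82 in 7 lists. The lists were also written with earlier results of these data known, so their counts are a description. Of the 71, 14 fell (19.7%), 2 rose and 55 did not pass, and their median log2 change was -0.11. Over all genes tested 2.28% fell and 2.30% rose and the median was -0.03, the background for each of the 7 lists. Leaving out replicate 2 or 3 of CRE-ERT2 reduced the 14 to 8 and 7, and it was 2 when all probe sets were tested.

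Of 14 other folate enzymes, 1 fell, 0 rose and 13 did not pass with limma, and at an unadjusted p under 0.05, 5 were lower and 0 higher, against 11.1% and 5.29% of all genes. The median was -0.13. The 1 was Mthfd2l, a mitochondrial relative of Mthfd2, at 9.45, 9.24 and 9.15 in the arrays labelled ERT2 and 8.85, 8.79 and 8.64 in those labelled CRE-ERT2. The groups were apart, and it fell by 0.52 (1.44-fold, limma adjusted p = 0.00467). The difference between the changes of Mthfd2 and Mthfd2l was -0.01 (standard error 0.13, exact permutation p = 0.8).

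Of the 4 proteins of the glycine cleavage system, which draws a carbon unit from glycine in mitochondria, 1 fell and 3 did not pass. Gldc, its decarboxylase, was at 10.82, 10.82 and 10.77 in the arrays labelled ERT2 and at 10.42, 10.43 and 10.22 in those labelled CRE-ERT2. It fell by 0.45 (1.37-fold, limma adjusted p = 0.00451).

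Among 12 carriers of folate, serine and glycine, 3 fell, 0 rose and 9 did not pass (5 lower and 0 higher at an unadjusted p under 0.05, against 11.1% and 5.29% of all genes), with a median of -0.12. Slc1a4, a transporter of serine and alanine, was at 10.13, 10.16 and 10.02 in the arrays labelled ERT2 and at 9.53, 9.34 and 9.22 in those labelled CRE-ERT2. It fell by 0.74 (1.67-fold, limma adjusted p = 0.000252), where the largest fall among the 9 enzymes was 1.45-fold. The glycine transporter gene Slc6a9 fell by 0.53 (adjusted p = 0.00194), and Slc25a32, which carries folate into mitochondria, fell by 0.35 (0.0347). The call of Slc25a32 was lost when any of 4 arrays was left out, with adjusted p of 0.137 without ERT2 replicate 1 and of 0.0550, 0.160 and 0.120 without replicates 1, 2 and 3 of CRE-ERT2.

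Genes that use serine or glycine went both ways: of 12, 1 fell, 1 rose, 10 did not pass and the median was 0. At an unadjusted p under 0.05, 1 was lower (8.33%) and 2 were higher (16.7%), against 11.1% and 5.29% of all genes. Gatm, which starts creatine synthesis from glycine, rose from 8.41, 8.55 and 8.43 in the arrays labelled ERT2 to 9.25, 8.99 and 9.22 in those labelled CRE-ERT2, by 0.69 (1.61-fold, limma adjusted p = 0.000323). Cth, which makes cysteine from cystathionine, fell by 0.41 (adjusted p = 0.0411), but not when replicate 2 (0.153) or 3 (0.130) of CRE-ERT2 or any ERT2 array (0.0659 to 0.104) was left out. Of 9 methionine cycle genes 1 fell, 0 rose and 8 did not pass (3 lower and 0 higher at an unadjusted p under 0.05, against 11.1% and 5.29% of all genes). The 1 was Ahcyl2, a relative of the enzyme that clears S-adenosylhomocysteine, by 0.46 (adjusted p = 0.00577).

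The 17 genes of the ATF4 arm and the 4 measured genes of lower glycolysis were set beside the enzymes. ATF4 is known to act on several genes of the route, and glycolysis supplies the phosphoglycerate from which Phgdh branches off, before the steps of Pgam1 and Pkm. In the ATF4 arm 5 fell and 1 rose, 11 did not pass, and the median was -0.16. At an unadjusted p under 0.05, 8 were lower (47.1%) and 3 higher (17.6%), against 11.1% and 5.29% of all genes. Chac1 (-0.88), Asns (-0.67), Cth (-0.41), Trib3 (-0.31) and Slc7a5 (-0.28) fell and Sesn2 (0.59) rose (limma adjusted p from 9.47e-05 to 0.0473). Atf4 itself, named after its value was seen, changed by -0.23 (interval -0.40 to -0.06) and did not pass (limma adjusted p = 0.138). Every array labelled CRE-ERT2 was below every array labelled ERT2 for Atf4, a pattern found in 15.5% of all genes. Of the glycolysis genes, Pgam1 (-0.39), Pgk1 (-0.37) and Pkm (-0.33) fell and Bpgm did not pass. Trib3 lost its call when any array but ERT2 replicate 1 was left out (adjusted p from 0.0741 to 0.133), and Slc7a5 when any of the 6 was (0.0674 to 0.215). Pgam1 lost it without CRE-ERT2 replicate 2 (0.0558), Pkm without ERT2 replicate 1 (0.0638) or CRE-ERT2 replicate 2 (0.0559), and Pgam1, Pgk1 and Pkm without CRE-ERT2 replicate 3 (0.0800, 0.0546 and 0.124). Of the genes of the 7 lists that passed, Slc1a4, Asns and Gatm passed when all probe sets were tested.

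**Figure D4:**
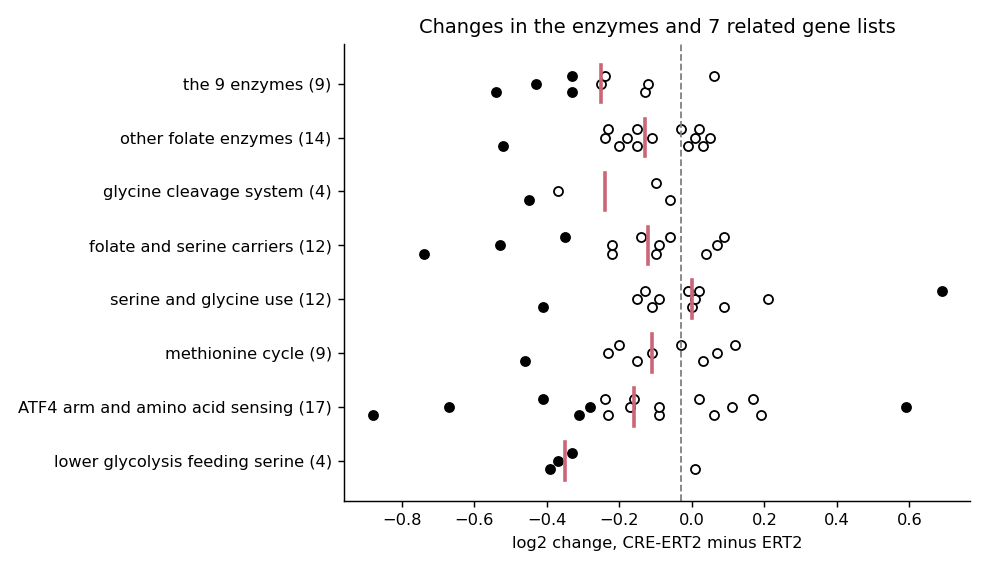
Log2 change, CRE-ERT2 minus ERT2 (horizontal axis), of each measured gene of the 9 enzymes and 7 related lists, with the number measured in brackets. Filled points passed with limma at an adjusted p under 0.05, red bars are list medians and the dashed line is the median of all genes (-0.03). The median of the enzymes is -0.25, and Slc1a4 (-0.74) and Gatm (0.69) lie farthest out among the carrier and serine-use lists.

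The profile over the 6 arrays that lay nearest to that of Mthfd2, outside the 9 enzymes, was that of Nr1d1, a nuclear receptor of the circadian clock. The measure was the root mean square difference between the 2 genes' log2 values, each centred on its own mean, and it was 0.033 for Nr1d1. The next were Gapt (0.041), Slc2a1, the glucose transporter GLUT1 (0.045), Klhl22 (0.047) and Cd53 (0.050). Their log2 changes lay between -0.58 and -0.50. The 6 points of a profile share their arrays and fall into 2 groups, so the ranking is a description of these arrays.

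Markers of cell identity were set beside the enzymes. Of the 11 measured pre-B cell markers, 1 rose, 1 fell and 9 did not pass. Their mean level was 12.41 to 12.47 in the arrays labelled ERT2 and 12.47 to 12.52 in those labelled CRE-ERT2. For 5 of the 11 every array labelled CRE-ERT2 was above every array labelled ERT2, and for 1 below. Over all 19938 genes these patterns were found in 1380 and 3100. The log2 change was below 0 for 2 of the 11 markers, against 61.1% of all genes. Dntt, which adds bases at antigen receptor joints, rose by 0.48 (limma adjusted p = 0.00369) and the interleukin-7 receptor gene Il7r fell by 0.43 (0.00349), both named after their values were seen. Their part in the changes of the enzymes was not tested. Of 25 markers in 4 lists of other cell types, 0 passed with limma, and 1 had an unadjusted p under 0.05. Of all genes, 11.1% were lower and 5.29% higher at that unadjusted threshold.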

How the data were processed

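Biotin-labelled total RNA was hybridised to Affymetrix arrays, per the labels' protocols. The authors deposited log2 values, 1 for each of 35556 probe sets on each array. The submitters' processing notes name RMA (background correction, normalization between arrays and probe summary) and Partek 6.5, and do not say which did what. The log2 scale was read from the range of the values. No detection call or scan date was used, so signal over background is unknown and a batch was not tested. The number of arrays limits the precision.

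The annotation gives 1 gene for 21789 probe sets, several for 1621 and none for 12146. The single-gene probe set with the highest mean was kept, with no filter on dim ones, which left 19938 genes. Arrays were compared with limma 3.58.1 under R 4.3.3 (functions lmFit and eBayes, group as the only term, two-sided, Benjamini-Hochberg over all genes, threshold 0.05), a fit tested on simulated data. No arrays were duplicates (8 to 57 identical values in a pair). The members and gene lists were chosen with earlier results of these data known. The naming rule took all 9 enzymes, the passing genes of each related list up to 6 by size of change, Ptpn6, and the 5 profiles nearest to that of Mthfd2. Alternatives changed the normalization, the filter, the probe sets, the variance model, the array weights and the block, and left out each array.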

Additional observations from a re-analysis of the deposited data

How the results depend on the processing

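The number of enzymes that fell, 4 of 9, was 1 when all probe sets were tested and between 1 and 4 when an array was left out (2 without CRE-ERT2 replicate 2 and 1 without CRE-ERT2 replicate 3). With a trended, robust variance it was 6. The number that rose was 0 throughout. Of the other pathway genes, 14 fell, against 2 with all probe sets tested and 7 to 12 with an array left out, and 2 rose, against 1 with all probe sets tested. The 14 became 20 with a trended, robust variance, 16 without the dimmest 0.333 of genes and 10 with a further quantile normalization. Over all genes 455 fell, against 720 without the dimmest 0.333 of genes, 957 with a trended, robust variance, 110 with all probe sets tested and 167 to 561 with an array left out. The number that rose, 459, was 286 to 424 with an array left out and 587 with a trended, robust variance. A further quantile normalization gave 349 that fell and 543 that rose. Centring each array on its median gave 399 that fell and 523 that rose, so the near balance of 455 and 459 depended on the normalization. With all probe sets tested, 110 fell and 188 rose, but these are counts of probe sets and not of genes. Testing all probe sets adjusts over 35556 features and also estimates anew the variance that limma shares across features. Leaving out an array leaves fewer samples. The part of each in the lost calls was not tested. A further quantile normalization ended the calls of Slc25a32 (adjusted p = 0.0508), Cth (0.0733), Trib3 (0.0501) and Slc7a5 (0.0533), and centring that of Slc7a5 (0.0803). The change of Aldh1l2, 0.06, was -0.02 to 0.12 with an array left out and turned sign without CRE-ERT2 replicate 2. Among isozyme pairs, leaving out an array gave -0.13 to 0.09 for Mthfd2 minus Mthfd2l.

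Deviations of same-numbered arrays from their group means correlated at -0.11, -0.37 and -0.07 over genes, so same-numbered arrays shared no positive deviation. These correlations cannot show whether same-numbered samples were handled as pairs. With the replicate number as a block, 2 enzymes fell (Psat1 had an adjusted p of 0.0603 and Shmt1 of 0.0710), 9 other pathway genes fell and 263 genes fell in all.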
